A study of Mus musculus with 18 samples.

Results

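The genes described here are 9 genes of glucose use, the glucose transporter Slc2a1 and the enzymes Gpi1, Pfkl, Aldoa, Tpi1, Pgk1, Pgam1, Eno1 and Ldha, given by name and matched by symbol or gene identifier. Of these 9 genes, 8 were found among the 8202 genes listed at 1 or more stages and 6 among the 5430 genes listed at every stage. Pgam1 was listed at none, and its values were not analysed here. RNA with poly(A) tails was sequenced from CD1 mouse embryos that were wild type (Oct4 +/+) or null (Oct4 -/-) for Oct4, the transcription factor of pluripotent cells encoded by Pou5f1. Embryos were taken at embryonic day (E) 2.5, E3.75 and E4.5, and each of the 6 groups held 3 libraries. The title puts the aim as finding genes whose expression needs Oct4 in vivo. The labels name no agent, no Cre and no transgene, and they do not say how the null allele was made or which part of the gene it lacks. The series text counts 3 embryos for each genotype at a stage and says nothing more on their litters, so a p-value reflects only how far these libraries vary.

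Glycolysis splits glucose into pyruvate in the cytosol and yields ATP and NADH without oxygen. Glucose enters through facilitative transporters of the Slc2a family, the sugar is phosphorylated, isomerised, phosphorylated again and cleaved, and the resulting triose phosphates are oxidised to pyruvate, which lactate dehydrogenase can reduce to lactate. Preimplantation mouse embryos live mainly on pyruvate and lactate during cleavage and take up more glucose as the blastocyst forms.

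Levels were given in CPM, reads per 1000000 reads of a library. Median depth was higher in the null than in the wild type group at every stage, and single libraries held from 364936 reads (null library 1 of E4.5) to 1922432 reads (null library 2 of E2.5). Oligo(dT) priming and amplification near the poly(A) tail place the reads close to the 3′ ends of transcripts, so a level says little about gene length and levels of different genes were not compared. Pou5f1, the targeted gene, was lower in every null than in every wild type library of its stage, with a mean of 1875 ± 194 CPM in wild type, against 968 ± 40.1 CPM in null embryos (SD, n = 3 each) at E2.5. At E3.75 the means were 509 ± 115 and 258 ± 33.3 CPM, and those of E4.5 were 231 ± 45.9 and 112 ± 26.9 CPM. Pou5f1 reads thus remained in every null library, and since the labels do not give the deleted part, reads from the 3′ end check only that the level was lower. In every group the third library could nearly be written as a weighted average of the first and second, with a residual variance of 1.03 to 1.25 times that of drawing reads, where the first or second library written in the same way left 1.12 to 2.71 times. Where a member or a named gene of the glucose metabolism lists passes a threshold below, its value from the first 2 libraries of each group is therefore also given. Single markers and counts of calls within those lists are given without it.

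Promoters of the members were taken from RefSeq windows (build GRCm38.p6) to show the sequence next to their starts, since several members share a direction in the results that follow. All 9 members matched the table. Letters were searched on either strand of the 250 bases before the start. The core bound by hypoxia-inducible factors reads ACGTG or GCGTG, the E-box bound by MYC reads CACGTG and so contains the first of these, the octamer bound by Oct4 reads ATGCAAAT, the TATA box TATAAA and the GC box GGGCGG. A hypoxia core of either form was found in 7 of 9 members (not in Gpi1 and Tpi1) and in 38.6% of all 32851 windows, and GGGCGG in 6 of 9 members and 32.7% of windows. CACGTG was in 0 of 9 members and 6.02% of windows, ATGCAAAT in 0 of 9 and 1.6%, and TATAAA in 0 of 9 and 12.4%. GC content was 54.4% to 69.2% in the members, against a median of 52.4% in all windows. Printed here are the transporter, the 2 enzymes that passed a test (Pfkl and Eno1) and Ldha, which had the smallest unadjusted p of a member at E4.5, each on the gene's own strand from 5′ to 3′, with ACGTG or GCGTG or their reverse complements in capitals.
Slc2a1: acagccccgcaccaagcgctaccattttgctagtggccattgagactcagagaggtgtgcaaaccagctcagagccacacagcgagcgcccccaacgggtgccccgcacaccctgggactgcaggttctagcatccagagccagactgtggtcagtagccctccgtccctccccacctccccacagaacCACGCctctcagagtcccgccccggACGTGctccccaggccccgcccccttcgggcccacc
Pfkl: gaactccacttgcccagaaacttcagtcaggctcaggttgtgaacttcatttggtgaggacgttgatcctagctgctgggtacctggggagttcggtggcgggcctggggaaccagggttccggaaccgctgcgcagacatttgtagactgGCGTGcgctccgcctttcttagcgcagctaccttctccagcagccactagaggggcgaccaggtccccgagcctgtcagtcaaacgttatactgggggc
Eno1: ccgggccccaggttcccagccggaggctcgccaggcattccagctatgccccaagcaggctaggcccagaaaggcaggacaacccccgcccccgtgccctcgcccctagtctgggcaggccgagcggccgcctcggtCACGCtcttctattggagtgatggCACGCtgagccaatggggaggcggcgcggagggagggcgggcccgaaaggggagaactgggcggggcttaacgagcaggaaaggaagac
Ldha: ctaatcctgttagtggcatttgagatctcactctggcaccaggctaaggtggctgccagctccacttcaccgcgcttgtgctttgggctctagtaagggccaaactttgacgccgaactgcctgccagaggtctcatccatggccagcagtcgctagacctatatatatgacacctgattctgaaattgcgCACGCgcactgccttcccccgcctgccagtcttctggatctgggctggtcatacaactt
The Slc2a1 window is chr4:119108495-119108744 on the plus strand, with matches that begin 61 and 36 bases before the start. That of Pfkl is chr10:78009808-78010057 on the minus strand, with 1 match 99 bases before the start. For Eno1 the window is chr4:150236974-150237223 on the plus strand, with matches 113 and 89 bases before the start, and it is the nearest of 3 windows to the transcript named in the deposited tables, whose start lies 6262 bases away. Ldha has the window chr7:46846832-46847081 on the plus strand, with 1 match 59 bases before the start. A match is a run of letters in the window and was not tested for binding.

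In null embryos the members were lower than in wild type embryos in most comparisons, and few of these differences passed the test. The members were chosen with earlier results of these data known. Shares of all genes beside them, here and below, are therefore a description and no test of the members as a set. At E2.5, 6 members were listed, 5 had a lower and 1 (Pfkl) a higher mean log2 level in null than in wild type embryos, and 0 passed limma at an adjusted p of 0.05. Over all 7082 genes of that stage 51.7% were lower and 0.593% passed, and 2 members were below an unadjusted p of 0.05 (Gpi1 lower, Pfkl higher) against 20.4% of genes (9.63% of all genes with a lower level in null embryos). edgeR and DESeq2 on the recovered reads also called 0 members at E2.5. At E3.75 all 8 listed members were lower, against 54.6% of 6648 genes, and 1 of them (Eno1) fell past the threshold, where 8.2% of genes passed, 4.6% in that direction. With a lower level in null embryos, 3 members (Slc2a1, Eno1 and Ldha) were below an unadjusted p of 0.05, against 13.4% of genes, or 22.8% in either direction. Pgk1, Eno1 and Ldha reached the 10.4 CPM that listing needs in 3 libraries in every wild type but not every null library. Their lower null level can follow in part from that rule, and they enter these counts and the E3.75 median below. At E4.5 all 8 listed members were again lower, against 44% of 6545 genes, and limma called 0 of them and 0 of all genes (0%). At that stage 6 of the 8 were below an unadjusted p of 0.05 with a lower level in null embryos, against 6.49% of genes, or 15% in either direction, and edgeR called 1 member among 42 genes and DESeq2 2 among 112. The median log2 difference of the members, null minus wild type, was -0.25 (all genes -0.02) for E2.5, -0.51 (all genes -0.04) for E3.75 and -0.48 (all genes 0.06) for E4.5. Leaving out 1 library moved it to between -0.43 (without null library 2) and -0.07 (without null library 1, with 4 of 6 lower) at E2.5, -0.70 and -0.42 at E3.75 and -0.64 and -0.41 at E4.5.

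**Figure D1:**
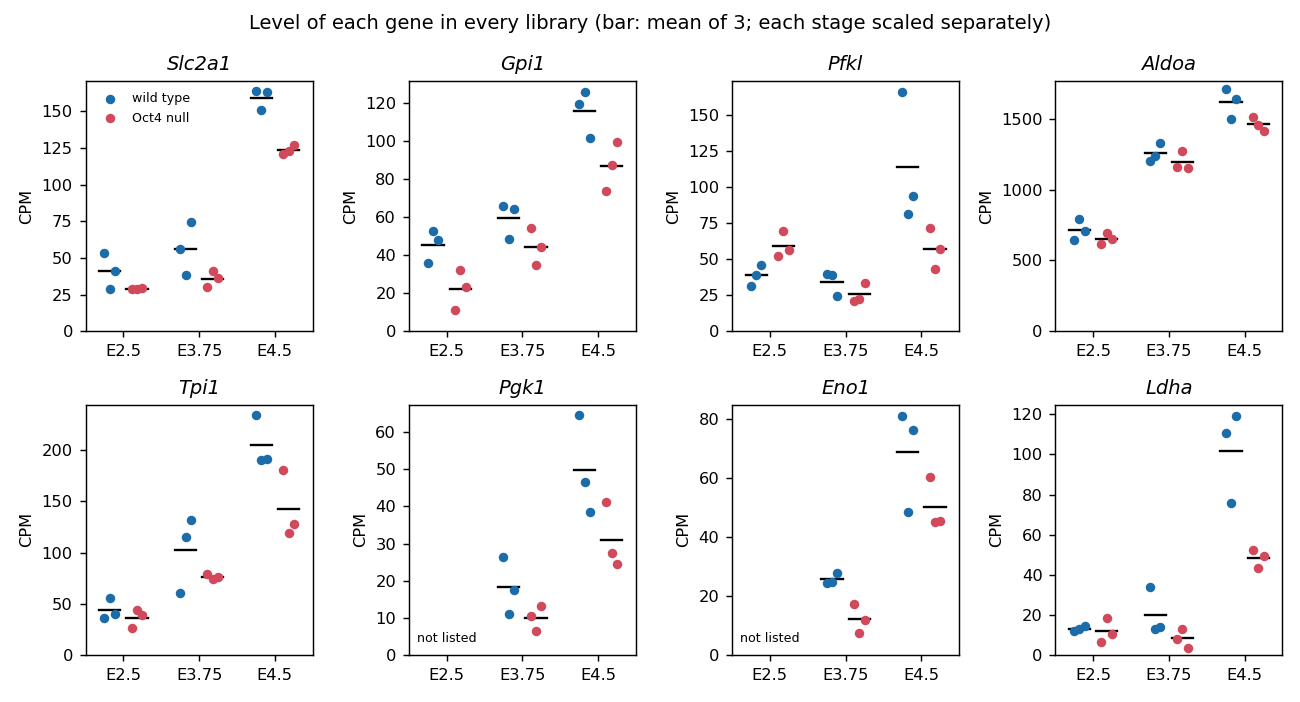
Level of each listed member in CPM (vertical axes, linear and from 0) by genotype and stage, with 1 point per library and a bar at the group mean. Levels at E4.5 lie above those at E3.75 in both genotypes for every member, and the null points of Ldha at E4.5 (43.4 to 52.1) lie below the wild type points (75.6 to 119).

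Overlap of the groups was counted as well. All 3 null libraries lay below all 3 wild type libraries for 1 of 6 members at E2.5 (Gpi1), 1 of 8 at E3.75 (Eno1) and 5 of 8 at E4.5 (Slc2a1, Gpi1, Pfkl, Tpi1 and Ldha), where the same held for 14.1%, 15.7% and 9.99% of all genes. The reverse, every null library above every wild type library, was seen only for Pfkl at E2.5 among the members and for 13.6% of genes at that stage. In whole embryos, fewer cells of a type and less RNA per cell cannot be told apart.

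Slc2a1 encodes GLUT1, a facilitative glucose transporter of the plasma membrane. At E2.5 its 3 wild type libraries read 53.5, 28.8 and 41.3 CPM and its null libraries 28.6, 28.6 and 29.2 CPM. The null values were nearly equal to each other and to the lowest wild type value, so the groups overlapped (log2 difference -0.46, SE 0.26, limma adjusted p = 0.337). At E3.75 the wild type libraries read 56.4, 38.2 and 74.6 CPM, and null libraries 30.1, 41.4 and 36.2 CPM. Null library 2 exceeded wild type library 2, and the log2 difference of -0.60 (SE 0.24) had a limma adjusted p of 0.126, which became 0.0284 without wild type library 2 (-0.85) and 0.456 if wild type library 3 was the one left out (-0.37). The first 2 libraries of each group gave -0.39 (limma adjusted p = 0.679). At E4.5 wild type libraries A, B and C stood at 164, 151 and 163 CPM and null libraries at 121, 123 and 127 CPM. The groups were tight and did not overlap, the null mean was 77.7% of the wild type mean, and the log2 difference was -0.36 (SE 0.13, 95% interval -0.66 to -0.07, limma adjusted p = 0.243).

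Gpi1, glucose-6-phosphate isomerase, turns glucose 6-phosphate into fructose 6-phosphate. At E2.5 the wild type libraries gave 36, 53 and 47.8 CPM, and null libraries 11, 32.3 and 23.5 CPM. Every null value was below every wild type value, and the null mean of 22.2 ± 10.7 CPM was 48.8% of the wild type mean of 45.6 ± 8.71 CPM (SD, n = 3). The log2 difference of -1.11 (SE 0.35) had a limma adjusted p of 0.119, which passed without wild type library 1 (-1.26, adjusted p = 0.0333) and in the fit over all 18 libraries (adjusted p = 0.027). Without null library 1 the difference was -0.69, the highest limma adjusted p without 1 library was 0.325, and the first 2 libraries of each group gave -1.16 (0.674). At E3.75 the values were 65.8, 48.4 and 64.2 CPM in wild type and 54.3, 34.9 and 44.5 CPM in null libraries, which overlapped (-0.42, SE 0.21, limma adjusted p = 0.242). For E4.5 the wild type libraries gave 119.7, 126 and 102 CPM, and 74, 87.5 and 99.8 CPM came from the null libraries. These groups did not overlap, although the highest null and the lowest wild type library were close (-0.41, SE 0.17, limma adjusted p = 0.286).

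Pfkl, the liver type subunit of phosphofructokinase 1, carries out the committed step that makes fructose 1,6-bisphosphate. It was the member with a higher mean level in null embryos at E2.5 and a lower one at both later stages. In E2.5 embryos the wild type libraries read 31.6, 39.2 and 46.2 CPM, and null libraries 52.1, 69.2 and 56.3 CPM, all above the wild type range (0.60, SE 0.22, limma adjusted p = 0.156). At E3.75 the wild type libraries read 39.5, 39.1 and 24.3 CPM, and null libraries 20.8, 22.5 and 33.4 CPM, and the groups overlapped through wild type library 3 and null library 3 (-0.41, SE 0.27, limma adjusted p = 0.395). At E4.5 wild type A stood apart at 166 CPM from B at 81.4 and C at 93.7 CPM, and the null libraries read 71.2, 43.4 and 56.6 CPM, all below them. The log2 difference at E4.5 was -0.94 (SE 0.27, limma adjusted p = 0.171), and it passed with DESeq2 (adjusted p = 0.0186) and in the fit over all 18 libraries (adjusted p = 0.0463). Without wild type A it was -0.63 (limma adjusted p = 0.524), and the first 2 libraries gave -1.05 (0.832).

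The change of the genotype effect with stage was tested directly over the 18 libraries. For Pfkl the effect at E4.5 differed from that at E2.5 by -1.54 on the log2 scale (SE 0.38, 95% interval -2.32 to -0.75, limma adjusted p = 0.048), where 1.01% of 5430 genes passed. In limma the difference was -1.80 (adjusted p = 0.654) from the first 2 libraries of each group and -1.56 (0.052) with a pseudocount of 0.1. By limma it passed when E2.5 wild type 2 (adjusted p = 0.0384), E3.75 wild type 1 (0.0462), E3.75 wild type 3 (0.0494), E4.5 wild type B (0.0185) or E4.5 null 1 (0.0284) was left out. Without any 1 of the other 13 libraries it missed the threshold, with values from -1.66 to -1.23 and the highest limma adjusted p, 0.149, without E4.5 wild type A. Between E2.5 and E3.75 the Pfkl effect differed with an interval of -1.79 to -0.21 (SE 0.38, limma adjusted p = 0.222), and between E3.75 and E4.5 by -0.53 (SE 0.38, adjusted p = 0.552). Of the other 5 members listed at every stage, 0 passed in any of the 3 stage contrasts, in which 1.12%, 1.01% and 0.0921% of genes passed. Their differences between stages ran from -0.97 (Ldha, E3.75 minus E2.5, interval -2.12 to 0.18) to 0.69 (Gpi1, E4.5 minus E2.5, interval -0.10 to 1.48), and 0 of these 5 members were below an unadjusted p of 0.05 in a stage contrast.

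**Figure D2:**
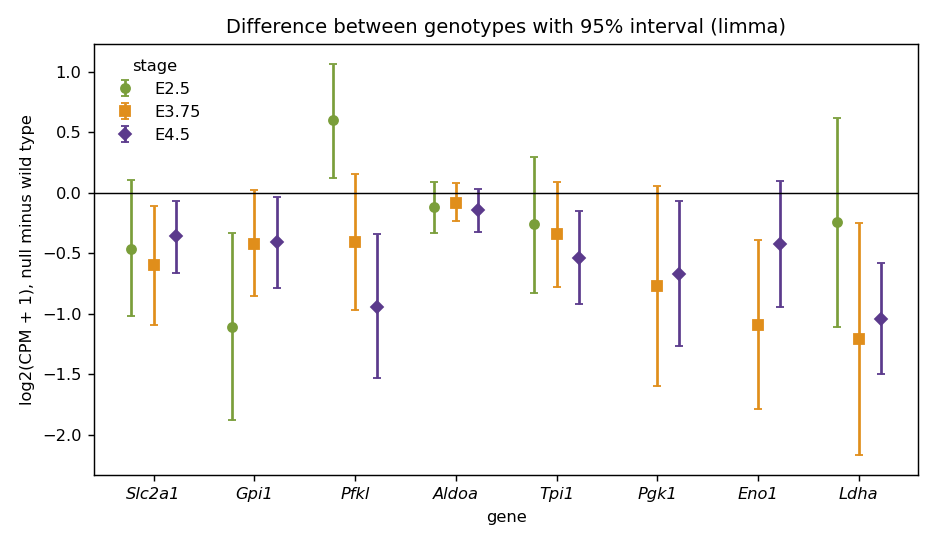
Log2 difference of each member, null minus wild type on log2(CPM + 1) (vertical axis), at each stage with its 95% interval from limma; the horizontal line marks 0. Pfkl lies above 0 at E2.5 (0.60) and below it at E4.5 (-0.94), and every member shown lies below 0 at E3.75 and E4.5.

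Aldoa, the aldolase that cleaves fructose 1,6-bisphosphate into triose phosphates, was the member with the narrowest intervals. At E2.5 its wild type libraries read 643, 794 and 705 CPM and its null libraries 619, 694 and 648 CPM. At E3.75 the wild type values were 1199.7, 1239.6 and 1331 CPM, next to null values of 1161, 1269 and 1150.5 CPM. At E4.5 the wild type values were 1711, 1501 and 1637 CPM, next to null values of 1515, 1455 and 1415 CPM. The groups overlapped at every stage, and the 95% intervals of the log2 difference were -0.33 to 0.09, -0.23 to 0.08 and -0.32 to 0.03 (limma adjusted p = 0.493, 0.591 and 0.414).

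Tpi1, triosephosphate isomerase, interconverts the 2 triose phosphates. At E2.5 the wild type libraries read 36, 55.3 and 39.7 CPM, and null libraries 26.4, 44.2 and 38.6 CPM, which overlapped (-0.26, SE 0.26, limma adjusted p = 0.6). At E3.75 the null libraries were close together at 78.6, 74.1 and 75.8 CPM, while the wild type libraries spread over 60.2, 115 and 132 CPM. Wild type library 1 alone lay below the null range, and the log2 difference of -0.34 (SE 0.21, limma adjusted p = 0.341) became -0.68 (adjusted p = 0.00918) without it. Without wild type library 3 it was -0.12 (limma adjusted p = 0.82), as it was with the first 2 libraries of each group (0.907), and without wild type library 2 it was -0.22. At E4.5 wild type libraries read 234, 190.0 and 191 CPM and null libraries 181, 119 and 128 CPM, with no overlap (-0.54, SE 0.18, limma adjusted p = 0.204). Without null library 1 this was -0.72 (limma adjusted p = 0.0396), without null library 2 it was -0.42, the highest adjusted p without 1 library was 0.548, and the first 2 libraries gave -0.52 (0.832).

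Pgk1 and Eno1 were listed at E3.75 and E4.5 only. Pgk1, phosphoglycerate kinase, makes the first ATP of the lower part of the pathway. At E3.75 it read 26.3, 11 and 17.4 CPM in wild type and 10.4, 6.54 and 13.2 CPM in null libraries, each from 9 to 19 reads, and the groups overlapped (-0.77, SE 0.40, limma adjusted p = 0.257). At E4.5 it read 64.5, 46.5 and 38.6 CPM in wild type and 41.1, 27.4 and 24.6 CPM in null libraries, where wild type C lay below null library 1 (-0.67, SE 0.27, limma adjusted p = 0.284).

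Eno1, the enolase that forms phosphoenolpyruvate, was the 1 member past the threshold within a stage. At E3.75 its wild type libraries read 24.4, 24.6 and 27.8 CPM, and its null libraries read 17.3, 7.27 and 11.8 CPM. The wild type values were close together, the null values varied more, and none of them reached the wild type range. Null library 2 lay below the 10.4 CPM that listing needs in 3 libraries, while all 3 wild type libraries reached it. The lower null level can thus follow in part from that rule. Eno1 fell by 1.09 on the log2 scale (SE 0.34, 95% interval -1.79 to -0.39, limma adjusted p = 0.0486), to 47.4% of the wild type mean, from 13 to 29 reads per wild type and 10 to 17 per null library. The call rests on few reads and stood near the threshold: it was kept without null library 1 (limma adjusted p = 0.044) and lost without wild type library 1 (0.0641), 2 (0.078) or 3 (0.154), null library 2 (-0.79, 0.192) or 3 (0.12), and with the first 2 libraries of each group (0.286). It also ended with a pseudocount of 0.1 (0.0517), TMM factors (0.0591), DESeq2 size factors (0.0581), thinned reads (0.116) and with the replicate number as a block (0.0594), and was kept by edgeR (0.0413), while DESeq2 gave no adjusted p. At E4.5 wild type libraries read 81, 48.5 and 76.3 CPM and null libraries 60.3, 44.9 and 45.4 CPM, which overlapped (-0.42, SE 0.24, limma adjusted p = 0.413). Between the stages the Eno1 effect differed by 0.67 (SE 0.41, limma adjusted p = 0.484, 12 libraries) and that of Pgk1 by 0.10 (SE 0.49, adjusted p = 0.957).

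Ldha, the lactate dehydrogenase subunit that favours reduction of pyruvate to lactate, had log2 differences of -1.21 at E3.75 and -1.04 at E4.5. At E2.5 it was near the lower limit of the table, at 12, 12.7 and 14.6 CPM in wild type and 6.61, 18.2 and 10.4 CPM in null libraries (-0.24, SE 0.40, limma adjusted p = 0.759), and without null library 1 the difference was 0.08. At E3.75 wild type library 1 stood apart at 33.8 CPM from libraries 2 and 3 at 12.7 and 13.9 CPM, and null library 2, at 13.1 CPM, lay inside their range, above null libraries 1 and 3 at 8.09 and 3.48 CPM. The log2 difference of -1.21 (SE 0.46) had a limma adjusted p of 0.112 and rests on 5 to 18 reads per library. It was -0.78 without wild type library 1, -0.77 without null library 3, -1.59 without null library 2 and -0.95 with the first 2 libraries of each group. At E4.5 wild type libraries read 110.5, 75.6 and 119 CPM and null libraries 52.1, 43.4 and 49.1 CPM. The null values were close together and all below the wild type values, with a null mean 47.3% of the wild type mean (-1.04, SE 0.21, 95% interval -1.50 to -0.58, unadjusted p = 0.000378, limma adjusted p = 0.125). The difference passed with edgeR (-1.20, adjusted p = 0.0264), with DESeq2 (-1.18, adjusted p = 0.00418) and in limma without null library 1, the shallowest library (-1.10, adjusted p = 0.0395). Leaving out 1 library gave -1.24 to -0.91 with limma adjusted p up to 0.477, and the first 2 libraries gave -0.93 (0.832).

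Reads of 4 members could be shared with near-identical genes. In the last 1000 bases of the transcript, a stretch of at least 200 bases with at least 95% identity occurred in 2 other genes for Tpi1, 4 for Pgk1, 3 for Eno1 and 2 for Ldha, and in none for the other 5 members. None of these copies was listed in a table, and how such reads were counted is not given in the sources used here, so the levels of these 4 genes are uncertain to that extent.

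Levels of the stages are set side by side only, with no test, because each table was scaled on its own genes, although the 5430 shared genes held 96% to 97.5% of every library. Wild type means at E4.5 were above those at E3.75 by a ratio of 1.29 for Aldoa, 1.95 for Gpi1, 2.01 for Tpi1, 2.68 for Eno1, 2.73 for Pgk1, 2.82 for Slc2a1, 3.31 for Pfkl and 5.05 for Ldha. In null embryos these ratios were 1.23, 1.95, 1.87, 4.13, 3.09, 3.45, 2.23 and 5.86 in the same order. In both genotypes every E4.5 library lay above every E3.75 library for each of the 8 members. From E2.5 to E3.75 the members differed more: the wild type ratio was 2.34 for Tpi1 and 1.76 for Aldoa, with no overlap, and 0.879 for Pfkl, 1.3 for Gpi1, 1.37 for Slc2a1 and 1.54 for Ldha, with overlap. In null embryos every E3.75 library was above every E2.5 library for Tpi1 (ratio 2.09), Gpi1 (2), Aldoa (1.82) and Slc2a1 (1.25), and Ldha overlapped (0.7). The Pfkl mean of null embryos at E3.75 was 0.432 times that at E2.5, with every library lower, and at E4.5 it was 0.964 times the E2.5 mean.

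Some markers of embryonic lineages, of blood and of handling differed by genotype beside these values, and markers of the same list did not all go the same way. Summed levels of listed primitive endoderm markers (6 of 7 at E3.75, 5 of 7 at E4.5) were 445 to 668 CPM in wild type, against 287 to 349.7 CPM in null libraries at E3.75, and 535 to 803 against 309 to 332 CPM at E4.5. At E2.5 (2 of 7 listed) they were 258 to 287 and 282 to 305 CPM. The 2 listed then went opposite ways without overlap, Lamb1 lower (-0.78, limma adjusted p = 0.0555) and Gata6 higher (0.41, 0.103). Later Gata6 overlapped, with differences of 0.09 at E3.75 and -0.32 at E4.5. At E3.75 limma called Lamb1 (-0.98, adjusted p = 0.000738), Lama1 (-1.13, 0.00144), Sox17 (-1.24, 0.0132) and Pdgfra (-1.37, 0.0196) lower, each without overlap. Gata4 was lower with overlap (-1.06, limma adjusted p = 0.121). Null means of Pdgfra (9.73 CPM) and Gata4 (8.51 CPM) lay below the 10.4 CPM that listing needs in 3 libraries. Trophectoderm markers summed to 8504 to 9649 CPM in wild type against 7219.5 to 8187 CPM in null libraries at E3.75 (9 of 9 listed) and overlapped at E2.5 and E4.5. Krt18 was the largest part at E3.75 (5135 ± 652 and 4407 ± 411 CPM). There Elf5 (-0.93), Hand1 (-0.72) and Tspan8 (-0.42) were also lower. Krt8 (-0.08) and Cdx2 (-0.04) differed little, and Gata3 (0.02), Eomes (0.11) and Tfap2c (0.29) were not lower. At E2.5 Hand1 was called higher in null embryos (0.96, limma adjusted p = 0.0101), while Tspan8 was lower (-0.62, 0.188). Pluripotent cell markers, Pou5f1 among them, summed to 2219 to 2632 CPM in wild type against 1441 to 1539 CPM in null libraries at E2.5 (4 of 7 listed), overlapped at 1549 to 1974 and 1509 to 1605 CPM at E3.75 (5 of 7), and were 1494 to 1689 against 911 to 1148 CPM at E4.5 (5 of 7 listed, Sox2 and Klf4 not). The lower sum at E2.5 came from Pou5f1, the targeted gene. Nanog (0.09), Dppa5a (0.16) and Zfp42 (0.03) were not lower in null embryos at that stage. Within this list Nanog, named after its values were seen, was higher in null embryos at E3.75, at 349 ± 23.2 CPM beside 212 ± 33.5 CPM for wild type (SD, n = 3; log2 difference 0.73, limma adjusted p = 0.000566). Of 12 immediate early and heat shock genes 3 were listed at E3.75 and at E4.5, and their sums were 970.3 to 1088 against 778 to 789.6 CPM at E3.75 and 624 to 673 against 554 to 571 CPM at E4.5. At E2.5, 5 were listed, and their sums overlapped at 768 to 1223 CPM in wild type and 1124 to 1211 CPM in null libraries. At E3.75 limma called Hsph1 (-0.39, adjusted p = 0.00412) and Dnajb1 (-0.44, 0.0348) lower, without overlap, and Ier2 differed by -0.20 (0.766). Single genes changed direction between E2.5 and E4.5, with 0 of these values called. Hsph1 differed by 0.49 (limma adjusted p = 0.162) and -0.22 (0.323), and Ier2 by -0.70 (0.291) and 0.88 (0.327). Of 12 markers of maternal blood, oviduct, uterus or cumulus only 3 globins were listed, and their sums overlapped at every stage: 1024 to 1437 CPM in wild type and 1076 to 1330.5 in null libraries at E2.5, 115 to 177 and 176 to 474 CPM at E3.75, and 149 to 268 and 148 to 1085 CPM at E4.5, where the median null library had 359.6 CPM. Although the globin sums overlapped at E3.75, limma called Hba-a1 (1.27, adjusted p = 0.0052) and Hbb-bs (1.00, 0.00818) higher in null embryos there. Hbb-bt differed by 0.80 (limma adjusted p = 0.136). The part of these marker differences in the members' values was not tested.

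**Figure D3:**
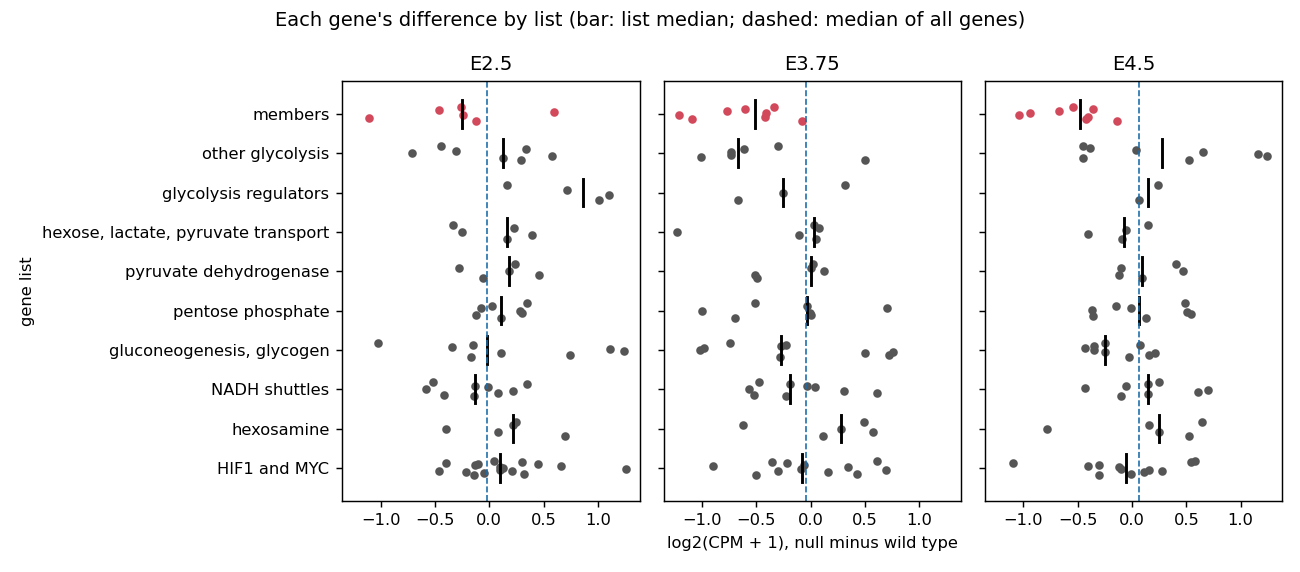
Log2 difference, null minus wild type on log2(CPM + 1) (horizontal axis), of every listed gene of the members and of 9 other lists of glucose metabolism, 1 panel per stage, with the list median as a bar and the median of all genes as a dashed line. In order of stage the members' medians are -0.25, -0.51 and -0.48, and those of the other glycolysis enzymes 0.13, -0.67 and 0.28.

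Other genes of glucose metabolism came from 9 lists of 126 genes. At E2.5, 67 were listed, 40 higher and 27 lower in null embryos, and limma called 0 (9 higher and 5 lower at an unadjusted p of 0.05), where edgeR and DESeq2 each called 2 higher. At E3.75, 61 were listed, 24 higher and 37 lower, of which 3 rose and 6 fell past the threshold, beside 3.6% and 4.6% of all genes; edgeR called 5 higher and 5 lower, and DESeq2 2 and 2. At E4.5, 61 were listed, 32 higher and 29 lower, with 0 called by limma (5 higher and 7 lower at an unadjusted p of 0.05), 0 by edgeR and 0 by DESeq2. Medians of the 3 stages were 0.11, -0.11 and 0.06, against -0.25, -0.51 and -0.48 for the members.

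Other glycolysis enzymes and isoforms had a median of -0.67 at E3.75. Of 6 listed there 5 were lower, all 5 without overlap of the groups (15.7% of all genes), and 0 were called. Pgam2, a phosphoglycerate mutase, had 92.6 ± 27.3 CPM in wild type and 59.6 ± 12.3 in null embryos (-0.61, limma adjusted p = 0.0644), and Pfkp, the platelet type phosphofructokinase subunit, 42.5 ± 10.6 and 25 ± 4.13 CPM (-0.73, adjusted p = 0.0746). At E2.5, 4 of 7 were higher (median 0.13), with differences of -0.71 for Minpp1 and -0.44 for the pyruvate kinase gene Pkm. At E4.5, 5 of 8 were higher (median 0.28); the hexokinase family member Hkdc1 read 17.5 ± 4.58 CPM in wild type and 42.3 ± 8.34 in null embryos (1.24, limma adjusted p = 0.143, 0.0396 without null library 1 and 0.832 with the first 2 libraries), and Pkm differed by -0.45 (adjusted p = 0.262).

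Regulators of the pathway were few among the listed genes. At E2.5 all 4 were higher in null embryos, with a median of 0.86. Wild type means of Pdp2 (8.52 CPM) and Pfkfb4 (9.4 CPM) lay below the 10.28 CPM that listing needs in 3 libraries. The higher null level of these genes can thus follow in part from that rule. Pfkfb3, which makes the phosphofructokinase activator fructose 2,6-bisphosphate, had 15.2 ± 3.95 CPM in wild type and 33.7 ± 7.73 in null embryos (1.10, limma adjusted p = 0.0859), and the pyruvate dehydrogenase phosphatase gene Pdp2 differed by 1.01 (0.192). At E3.75 Tigar, a fructose 2,6-bisphosphatase, differed by 0.32 (limma adjusted p = 0.0796) and Pfkfb2 by -0.67 (0.292). Tigar passed with edgeR (adjusted p = 0.0306) and in limma with TMM factors (0.0431), DESeq2 size factors (0.0448) or without null library 2 (0.0317). The first 2 libraries of each group gave 0.35 for Tigar (limma adjusted p = 0.37). At E4.5 Tigar differed by 0.24 (0.448) and Pfkfb4 by 0.06 (0.953).

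Of the transporters other than Slc2a1, limma called 0 at any stage. Slc2a3 (GLUT3) had 606 ± 50.2 CPM in wild type and 711 ± 21.4 in null embryos at E2.5 (0.23, limma adjusted p = 0.166) and 1317 ± 30.7 against 1396 ± 141 CPM at E3.75 (0.08, 0.577). Slc16a1, a monocarboxylate carrier, had 13.8 ± 1.56 against 5.33 ± 0.628 CPM at E3.75 (-1.23, limma adjusted p = 0.0914), from 7 to 15 reads per wild type and 4 to 8 per null library. Its null libraries lay below the 10.4 CPM that listing needs in 3 libraries. It was thus listed through wild type alone, and its lower null level follows in part from that rule. Differences of -0.33 for Slc2a8 at E2.5, -0.41 for the mitochondrial pyruvate carrier gene Mpc2 at E4.5 and -0.09 for Bsg, a chaperone of monocarboxylate carriers, at E4.5 did not pass (limma adjusted p = 0.193, 0.282 and 0.656).

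Of the 9 genes of these lists called at E3.75, 8 lay in routes that branch from or follow glycolysis and 1 was Epas1. In the pentose phosphate pathway, with 7 of 9 genes listed and 2 called lower, the transketolase gene Tkt read 513, 420.3 and 457 CPM in wild type and 341, 317 and 312 CPM in null libraries. These groups did not overlap, and Tkt fell by 0.51 on the log2 scale (SE 0.10, limma adjusted p = 0.00245, and 0.0702 with the first 2 libraries of each group). Rpe, ribulose-5-phosphate epimerase, fell from 39.2 ± 9.32 to 19.1 ± 4.68 CPM (SE 0.28 on the log2 scale, limma adjusted p = 0.0276), a call lost without wild type library 1 (0.0808) or 3 (0.102) or null library 1 (0.135), with the first 2 libraries (0.134), thinned reads (0.0761) and the 18-library fit (0.155). At the other stages this list held no call in the fit of the stage: Pgd, phosphogluconate dehydrogenase, differed by -0.12 at E2.5 (limma adjusted p = 0.365) and by -0.36 at E4.5 (0.183), Tktl1 by 0.35 at E2.5 (0.535) and Pgls by 0.54 at E4.5 (0.421). In the 18-library fit Pgd passed at E4.5 (limma adjusted p = 0.0241), and with the first 2 libraries it did not (0.833).

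In gluconeogenesis and glycogen, 2 of 9 listed genes fell at E3.75. Fbp2, a fructose bisphosphatase, fell from 1696 ± 60.3 to 1396 ± 84.9 CPM (-0.28, limma adjusted p = 0.0132), which was lost without wild type library 3 (0.0678) or null library 1 (0.0903), with the first 2 libraries (0.155), DESeq2 (0.0592) and the 18-library fit (0.0544). Ugp2, which makes UDP-glucose, fell from 84.1 ± 21.9 to 49.3 ± 7.72 CPM (-0.74, limma adjusted p = 0.0275). That call was lost without wild type library 1 (0.0987) or 3 (0.109), null library 1 (0.104) or 3 (0.107), and with the first 2 libraries (0.277), DESeq2 (0.0654), thinned reads (0.0997) and the 18-library fit (0.105). At E2.5 the glycogen synthase kinase gene Gsk3b had 26.1 ± 7.35 CPM in wild type and 61.3 ± 4.79 in null embryos (1.24, limma adjusted p = 0.0512, edgeR 0.0252, and 0.573 by limma with the first 2 libraries) and the glycogen synthase gene Gys1 18.7 ± 6.82 and 39.9 ± 4.6 CPM (1.11, limma 0.0859). Both passed in the 18-library fit (limma adjusted p = 0.0197 and 0.0405), and Gys1 had 0.667 with the first 2 libraries. At E4.5 the glycogen phosphorylase gene Pygb differed by -0.35 and Ugp2 by -0.25 (limma adjusted p = 0.309 and 0.519).

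NADH made by glycolysis can be passed on by the malate and glycerol phosphate shuttles, where 1 of 9 listed genes rose and 1 fell at E3.75. Gpd1l, a glycerol-3-phosphate dehydrogenase 1-like enzyme, read 530.3, 612 and 554 CPM in wild type and 921, 813 and 856 CPM in null libraries. The groups lay well apart, and Gpd1l rose by 0.61 on the log2 scale (SE 0.09, limma adjusted p = 8.57e-05), with the call kept in every alternative run, the first 2 libraries included. Mdh1, cytosolic malate dehydrogenase, fell from 279 ± 22.5 to 190.0 ± 38.4 CPM (-0.57, limma adjusted p = 0.0112), a call lost without null library 1 (0.0893) and kept with the first 2 libraries (0.0187). At E2.5 Mdh1 differed by -0.58 (limma adjusted p = 0.0859) and Slc25a13 by -0.52 (0.345), and at E4.5 Mdh1 differed by -0.43 (0.171) and Gpd1l by 0.61 (0.191). In the 18-library fit Mdh1 passed at E2.5 (limma adjusted p = 0.031) and Gpd1l at E4.5 (0.0121). With the first 2 libraries neither of these passed (0.667 and 0.832).

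In the pyruvate dehydrogenase complex 1 of 5 genes fell at E3.75: Dld, its dihydrolipoamide dehydrogenase, went from 114 ± 10.8 to 79.3 ± 6.38 CPM (-0.51, limma adjusted p = 0.0424). The call was lost without any 1 of wild type libraries 1 (0.0995) and 3 (0.0905) and null libraries 1 (0.0833), 2 (0.137) and 3 (0.115), with the first 2 libraries (0.22), and with the replicate number as a block (0.0546). It was also lost with edgeR (0.0609), DESeq2 (0.114), TMM factors (0.0625), DESeq2 size factors (0.0603), thinned reads (0.316) and the 18-library fit (0.132). At E2.5 Dld differed by 0.46 (limma adjusted p = 0.24) and Pdhb by -0.28 (0.299), and at E4.5 Pdha1 differed by 0.47 (0.169) and Pdhx by 0.40 (0.42), none past the threshold in the fit of the stage. Pdhb passed without wild type library 1 (limma adjusted p = 0.0288) and Pdha1 in the 18-library fit (0.02). With the first 2 libraries neither of these passed (0.815 and 0.832). In the hexosamine pathway Uap1, which makes UDP-N-acetylglucosamine, rose from 89.2 ± 13.9 to 125 ± 9.82 CPM (0.49, limma adjusted p = 0.0486). It lost the call without wild type libraries 1 (0.096) or 3 (0.175) or null libraries 1 (0.0803), 2 (0.121) or 3 (0.224), with the first 2 libraries (0.51), with the block (0.0585), and with a pseudocount of 0.1 (0.0515), DESeq2 (0.0781), thinned reads (0.0904) and the 18-library fit (0.107). At E2.5 Gfpt1, which makes glucosamine 6-phosphate, differed by 0.70 (limma adjusted p = 0.305) and Uap1 by 0.25 (0.365), and at E4.5 Uap1 differed by 0.64 (0.2) and Ogt by -0.78 (0.334). Uap1 at E4.5 passed in the 18-library fit (limma adjusted p = 0.0348) and not with the first 2 libraries (0.832).

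Among regulators and targets of the hypoxia-inducible factors and MYC outside glycolysis, 1 of 12 listed genes rose at E3.75. Epas1, which encodes HIF-2 alpha, read 117, 136 and 159.7 CPM in wild type and 217, 242 and 202 CPM in null libraries, with no overlap. Epas1 rose by 0.69 on the log2 scale (SE 0.14, limma adjusted p = 0.00253), and every alternative run kept the call. At E2.5 Egln3, a prolyl hydroxylase that marks these factors for degradation, read 30.5, 50.7 and 57.6 CPM in wild type and 140.2, 77.5 and 116 CPM in null libraries. All 3 null values were above the wild type values, with a difference of 1.26 (limma adjusted p = 0.0558, edgeR 0.0305, and 0.0122 or 0.011 by limma if wild type library 1 or 2 was left out, but 0.549 with the first 2 libraries). Hif1an, which hydroxylates the factors at an asparagine, differed by 0.66 at E2.5 (limma adjusted p = 0.179). At E4.5 P4ha1, a collagen prolyl hydroxylase subunit, differed by -1.10 (limma adjusted p = 0.193) and Ndrg1 by -0.30 (0.222).

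Co-variation of the members was described over the 18 libraries, for the 6 members listed at every stage, after the mean of each stage was taken from log2(CPM + 1). The 15 pairs had Pearson r from 0.02 (Pfkl and Gpi1) to 0.79 (Tpi1 and Aldoa), with a median of 0.42, and all 15 were positive. These values hold the genotype difference. With the mean of each group taken out instead, r ran from -0.27 to 0.70 with a median of 0.16, and 10 of 15 were positive. The libraries share their stage's scaling, and the third of each group is near a mix of the other 2, so the 18 points are not independent.

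**Figure D4:**
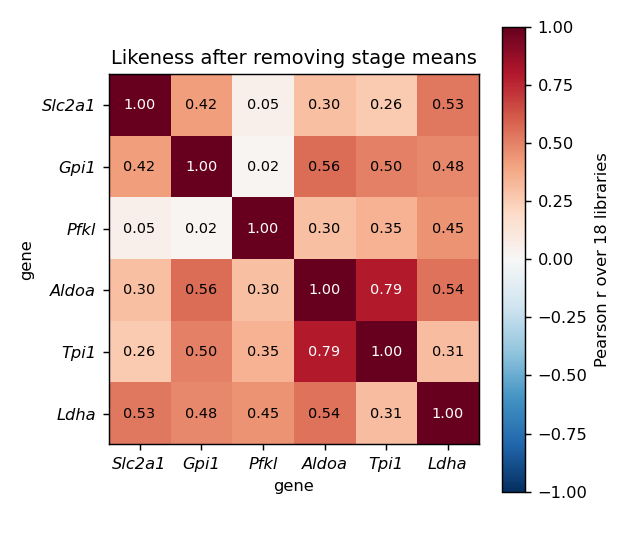
Pearson r between the 6 members listed at every stage over 18 libraries, computed on log2(CPM + 1) after the stage mean was taken out, with r printed in each cell and coloured from low to high. Tpi1 and Aldoa show the highest value (0.79), and Pfkl with Gpi1 (0.02) and Slc2a1 (0.05) the lowest.

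Of 5424 other genes, those most like the mean of the 6 members by the same measure were Oat, an ornithine aminotransferase (r = 0.90), Suclg1, a succinyl-CoA ligase subunit (0.89), Lamb1, a laminin chain (0.88), Pcsk6, a proprotein convertase (0.86), and Pou5f1 itself (0.85). Each was lower in null embryos at every stage by its mean log2 level, with differences from -0.21 (Suclg1 at E2.5) to -1.05 (Pou5f1 at E4.5). These r values describe 18 libraries in which genotype is 1 of the sources of variation, and no test was made of them.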

How the data were processed

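What the authors deposited is CPM, reads per 1000000 of a library, in a separate table for each stage. The submitters' processing notes list edgeR and mm9; the aligner, counter and gene models were not given in the sources used here. Every column adds up to 1000000 within its table, so stages were scaled apart from one another. Low genes were missing from the files: each listed gene reaches 10.28, 10.4 or 10.42 CPM or more (E2.5, E3.75, E4.5) in at least 3 of 6 libraries. The wild type columns of E4.5 have identical headers, so these libraries have no number and take the letters A to C by position. A reference gene table gave symbols to 6968 of 7082, 6546 of 6648 and 6443 of 6545 genes.

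Reads were recovered from the CPM steps: 121650 of 121650 values were whole (100%, to 0.01 reads), and their sums are the depths. The test was limma 3.58.1 in R 4.3.3 on log2(CPM + 1), a scale that understates changes of low genes, with a variance trend. It was two-sided, with Benjamini-Hochberg adjustment across the genes of the stage and a cutoff of 0.05. Stage differences of the genotype effect used 18 libraries and 5430 genes, where a scale shared by a table cancels. A fit of E3.75 and E4.5 alone, for genes absent from E2.5, was added after the data were seen.

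The genes named are all members, Pou5f1, the genes called in each other list (at most 4 by smallest p) or else the 2 with the smallest p, and the 5 genes most like the members. Single markers of lineages, blood and handling were named after their values were seen. Members and lists were chosen with earlier results of these data known. Alternatives were edgeR 4.0.16 and DESeq2 1.42.0 on the recovered reads, TMM or DESeq2 size factors, a pseudocount of 0.1 or 5, genes with mean CPM of at least 10, thinned reads, omission of each library, the first 2 libraries of a group, a replicate block, and 1 fit of all 18 libraries. Tests were checked on simulated data. Copies were sought with blastn in GENCODE vM21 transcripts, and promoters came from RefSeq (GRCm38.p6); neither was mixed with mm9 coordinates.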

Additional observations from a re-analysis of the deposited data

Results flagged for a closer look

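Of the members and the named genes of glucose metabolism, 2 had a genotype effect that differed between stages past the threshold. Over 5430 genes, 1.12% passed for E3.75 minus E2.5 and 1.01% for E4.5 minus E2.5. Among the single markers named, Hand1 (-1.68, limma adjusted p = 0.0394) and Hsph1 (-0.88, 0.0317) also passed for E3.75 minus E2.5. For Pfkl the null minus wild type difference was 0.60 at E2.5 and -0.94 at E4.5, a difference of effects of -1.54 (SE 0.38, limma adjusted p = 0.048 over 18 libraries). For Tkt, the transketolase gene, the null minus wild type difference was more negative at E3.75 than at E2.5 by -0.54 (SE 0.14, limma adjusted p = 0.0495 over 18 libraries). The Tkt libraries read 376, 378 and 369.6 CPM in wild type and 359.8, 394 and 394 CPM in null embryos at E2.5. Leaving out 1 library at a time gave Tkt values from -0.61 to -0.47 with limma adjusted p from 0.0323 to 0.147, and the first 2 libraries of each group gave -0.49 (limma adjusted p = 0.925), and a pseudocount of 0.1 gave -0.55 (0.0518).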

How the results depend on the processing

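Over 16 to 18 settings each, every member kept its sign at every stage, except Ldha at E2.5, which gave -0.59 to 0.08 when 1 library was left out. Of the values of members under alternatives, 392 kept direction and, where an adjusted p was given, side of the threshold, 10 came to pass, 26 no longer passed and 1 reversed.

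Members called at E2.5 (0) became 1 in the fit over all 18 libraries and 0 to 1 without 1 library. Those at E3.75 (1, Eno1) became 0 with a pseudocount of 0.1, TMM factors, DESeq2 size factors, DESeq2, thinned reads, the first 2 libraries of each group, the replicate block and the fit over 18 libraries, which does not hold Eno1, and 0 to 1 without 1 library. Those at E4.5 (0) became 1 with edgeR, 2 with DESeq2, 1 in the 18-library fit and 0 to 2 without 1 library (2 without null library 1). For the stage difference E4.5 minus E2.5 the call (1, Pfkl) became 0 with a pseudocount of 0.1 and with the first 2 libraries, and 0 to 1 without 1 library.

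Genes called at E2.5 (42) numbered 99 with TMM factors, 93 with DESeq2 size factors, 179 with edgeR, 238 with DESeq2, 74 with thinned reads, 1 with the first 2 libraries, 139 in the 18-library fit and 1 to 773 without 1 library (1 without any null library, 9, 390 and 773 without wild type 3, 1 and 2). At E3.75 (545) there were 307 with DESeq2, 363 thinned, 155 with the first 2 libraries, 213 in the 18-library fit and 209 to 652 without 1 library (209 without wild type 3, 221 and 287 without null 1 and 3). The split at E3.75 was 239 higher and 306 lower, and with TMM factors 287 and 216, with DESeq2 size factors 282 and 219. At E4.5 (0) there were 1 with a pseudocount of 5, 2 with TMM factors, 42 with edgeR, 112 with DESeq2, 13 thinned, 221 in the 18-library fit and 0 to 120 without 1 library (120 without null library 1). DESeq2 left 1785, 3738 and 3934 genes without an adjusted p. Pfkfb4 at E4.5 (0.06) gave -0.04 with edgeR, -0.02 with DESeq2, -0.06 with the first 2 libraries and -0.11 to 0.26 without 1 library. Where not stated above, the cause was not tested.

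Replicate numbers did not pair the libraries: deviations of same-numbered libraries correlated by -0.0313 to 0.121, and 1 of 6 numbers correlated best with its own. With the replicate block 30 genes were called at E2.5 and 438 at E3.75, the members called were 0 at each, and of the members only Eno1 lost its call. No paired analysis was possible at E4.5 because the wild type columns carry no number. Depth limits the low members, since Eno1, Pgk1 and Ldha at E3.75 rest on 5 to 29 reads per library.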
